A study of Rattus norvegicus with 17 samples.

Results

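Liver is the main source of the acute phase proteins, plasma proteins whose production changes during inflammation. The mRNAs of 7 of them (Lbp, Crp, Hp, Hpx, A2m, Orm1 and Serpina3n) and of 3 parts of the interleukin-6 signalling chain (the receptor subunits Il6r and Il6st, and the transcription factor Stat3) were measured in the livers of 17 rats. The genes were chosen by symbol: every probe set annotated to exactly 1 of the 10 symbols was taken, which gave 14 of the 31099 probe sets on the array. Il6st had 4 probe sets, Stat3 had 2 and each other gene had 1, and all 14 passed the filter on dim probe sets described with the processing.

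The rats formed 3 groups, and each array held liver RNA of 1 rat. In the ligated ghrelin group (n = 5) the common bile duct was tied at week 7 and recombinant ghrelin, a stomach hormone, was delivered by an osmotic pump under the skin at 10 micrograms per kg per day until week 9. The ligated saline group (n = 6) had the same operation and a saline pump, and the sham group (n = 6) had an abdominal incision without ligation and a saline pump. Every rat thus carried a pump for 2 weeks, and no sham rat received ghrelin, so an effect of ghrelin was measured here only in ligated rats. Ligation stops bile flow and is used in rats as a model of obstructive cholestasis and scarring of the liver. Strain and sex were not given in the labels used here.

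Interleukin-6 binds the receptor chain encoded by Il6r, and the pair then joins the shared signalling chain gp130, encoded by Il6st. The kinases attached to gp130 phosphorylate STAT3, which enters the nucleus and switches on acute phase genes, often together with C/EBP and NF-kB factors. The receptor chain can also be cut from the cell surface by the protease ADAM17, after which the soluble chain and interleukin-6 can act on cells that carry gp130 alone. In rats alpha-2-macroglobulin is a strongly inducible acute phase protein, while C-reactive protein circulates at a high level in healthy animals.

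RefSeq promoters (build GRCr8) were found for 7 of the 10 genes. The 250 bases before the start site are shown for Serpina3n, Orm1 and Crp because these were the promoters in which letters of a motif of the pathway were found, and because the mRNAs of the first pair rose after ligation and that of Crp fell. Capitals mark every match.

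Serpina3n, chr6:129088142-129088391, + strand: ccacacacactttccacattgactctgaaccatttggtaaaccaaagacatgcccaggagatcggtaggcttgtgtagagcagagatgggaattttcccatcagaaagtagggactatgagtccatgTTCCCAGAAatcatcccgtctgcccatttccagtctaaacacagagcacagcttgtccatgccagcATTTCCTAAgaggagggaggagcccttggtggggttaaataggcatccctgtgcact

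Orm1, chr5:81788259-81788508, + strand: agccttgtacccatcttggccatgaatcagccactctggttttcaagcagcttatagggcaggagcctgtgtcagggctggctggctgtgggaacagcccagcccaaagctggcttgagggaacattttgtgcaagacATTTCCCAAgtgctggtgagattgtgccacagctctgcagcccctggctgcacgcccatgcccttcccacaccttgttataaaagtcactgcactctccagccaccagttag

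Crp, chr13:87693812-87694061, + strand: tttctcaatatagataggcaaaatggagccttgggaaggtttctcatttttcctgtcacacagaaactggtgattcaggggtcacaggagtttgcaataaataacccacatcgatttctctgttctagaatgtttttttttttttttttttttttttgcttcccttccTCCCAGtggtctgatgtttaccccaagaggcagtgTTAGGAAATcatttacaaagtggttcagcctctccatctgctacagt

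The motifs searched, on both strands and from 250 bases before to 50 after the start site, were TTCNNNGAA for STAT factors, CTGGGA for the core of the type 2 interleukin-6 response element, TTNNGNAAT for C/EBP factors and GGGNN followed at once by TTTCC for NF-kB. In Serpina3n the STAT letters TTCCCAGAA began at position -123 and contained the type 2 core (TCCCAG, read on the other strand), and C/EBP letters (ATTTCCTAA) began at -57. In Orm1 C/EBP letters (ATTTCCCAA) began at -112, and in Crp the type 2 core (TCCCAG) began at -82 and C/EBP letters (TTAGGAAAT) at -47. Hpx, Il6r, Il6st and Stat3 held no match in this window. Of the 7 promoters, 1 held the STAT letters, 2 the type 2 core, 3 the C/EBP letters and 0 the NF-kB letters, whereas among all 27457 rat promoters of that length 8.68%, 30.4%, 12.1% and 1.51% did. A match describes these letters and does not show that a factor binds there.

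After 2 weeks of ligation the genes moved apart. Lbp, Orm1, Stat3 and Il6st were higher in ligated saline rats than in sham rats, Il6r and Crp were lower, and Hp, Hpx and Serpina3n were higher by small amounts. Of the 14 probe sets, 10 rose, 2 fell and 2 were not called at an adjusted p under 0.05 (limma, Benjamini-Hochberg over 15965 probe sets), where 61.5% of all probe sets were called, 34.2% as higher and 27.3% as lower. Groups did not overlap for 5 of the 14, against 40.9% of all probe sets. The median log2 change of the 14 was 0.39, against 0.04 over all probe sets, and most probe sets of this liver were called, so the count alone does not set these genes apart. With each rat left out in turn, the count that rose ran from 5 to 10. It stayed at 10 only without sham rat 5 or ligated ghrelin rat 3. It was 6 without sham rat 1, 5 without sham rat 6, 6 without ligated saline rat 2 and 6 without ligated saline rat 4. The count that fell was 2 whichever rat was left out. With array medians set equal, 5 rose.

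Lbp, whose product binds bacterial endotoxin and passes it to CD14 and the TLR4 complex, had the largest change of the 14 probe sets. Its intensity was 19527, 14696, 17241, 14626 and 17655 in the ligated ghrelin rats. It lay between 13977 and 20404 (median 18220) in ligated saline rats and between 1827 and 7916 (median 4493) in sham rats. Every ligated rat was above every sham rat, and the sham rats themselves spread over a wider log2 range (SD 0.711) than the ligated ghrelin (SD 0.18) or ligated saline rats (SD 0.203). The mean log2 intensity was 14.11 in ligated saline and 11.96 in sham rats, a change of 2.15 ± 0.244 (SE; 4.45-fold, adjusted p = 1.24e-06 by limma). Between ligated ghrelin and sham rats the change was 2.07 ± 0.256 (adjusted p = 5.17e-06 by limma). In tissue RNA, fewer cells of a type and less RNA per cell cannot be told apart, and this holds for each gene below.

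Orm1 encodes alpha-1-acid glycoprotein, a binder of basic drugs in plasma. Its intensity was 35322, 34852, 35803, 30988 and 35562 in ligated ghrelin rats, between 27961 and 41312 (median 33540) in ligated saline rats and between 18161 and 30014 (median 22325) in sham rats. All 5 ligated ghrelin rats and 5 of 6 ligated saline rats were above the highest sham rat, and ligated saline rat 3 was below it. Orm1 rose by 0.59 ± 0.117 on the log2 scale in ligated saline over sham rats (1.5-fold, adjusted p = 0.000374 by limma) and by 0.60 ± 0.123 in ligated ghrelin over sham rats (adjusted p = 0.000618 by limma).

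Serpina3n, a serine protease inhibitor related to antichymotrypsin, changed less. Its intensity was 19441, 17847, 20065, 16324 and 18458 in ligated ghrelin rats, between 14267 and 21571 (median 17632) in ligated saline rats and between 13343 and 18770 (median 14863) in sham rats. The groups overlapped: 2 of 5 ligated ghrelin rats and 2 of 6 ligated saline rats exceeded sham rat 5, the highest sham rat. The log2 change between ligated saline and sham rats was 0.26 ± 0.108 (adjusted p = 0.0456 by limma), and the exact permutation test on the same 12 rats gave p = 0.0563 (two-sided, unadjusted). The limma call was lost when any of 12 of the 17 rats was left out (changes of 0.21 to 0.33, adjusted p between 0.0126 and 0.108 over all 17 fits). It was also lost with array medians set equal (0.071, adjusted p = 0.603 by limma).

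Haptoglobin (Hp), which captures free haemoglobin, and hemopexin (Hpx), which captures free haem, were among the brightest probe sets on the array and scarcely varied between rats. Hp intensity was 50124, 49914, 48169, 50416 and 49930 in ligated ghrelin rats, between 48760 and 50180 (median 49760) in ligated saline rats and between 44170 and 47849 (median 45657) in sham rats. Hpx intensity was 33488, 32138, 33182, 33632 and 33166 in ligated ghrelin rats, between 31651 and 33515 (median 32661) in ligated saline rats and between 29439 and 31470 (median 29914) in sham rats. For both genes every ligated rat lay above every sham rat. The differences were small: 0.12 ± 0.0484 for Hp (1.08-fold, adjusted p = 0.0442 by limma) and 0.12 ± 0.0486 for Hpx (1.09-fold, adjusted p = 0.0408 by limma) between ligated saline and sham rats. The exact permutation test gave p = 0.00216 for each, the smallest it can give for 6 rats against 6 (two-sided, unadjusted). The within-group SD was 0.0303 for Hp and 0.0313 for Hpx on the log2 scale, smaller than for 99.9% of the 9736 genes measured. Hp intensity also lay only 0.21 to 0.48 below the brightest probe set of the same array on the log2 scale, against 0.77 to 1.07 for Hpx and 0.53 to 1.77 for Orm1, and whether signal near the top of the scale is compressed was not tested. With array medians set equal both directions turned, to -0.072 for Hp and -0.069 for Hpx (adjusted p = 0.235 and 0.266 by limma). After quantile normalization both stayed upward, at 0.10 and 0.14 (adjusted p = 0.0775 and 0.0183 by limma). With no filter the adjusted limma p was 5.09e-05 and 5.38e-05, and with another variance prior it was 0.00135 and 0.00185. In fits of only the 2 groups it was 0.0715 and 0.0672. Leaving out 1 rat ended the Hp call for 15 of 17 rats and the Hpx call for 10 of 17, with changes of 0.11 to 0.13 for both.

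C-reactive protein (Crp), a pentraxin that marks damaged cells and microbes for complement, moved the other way. Crp intensity was 14599, 17307, 12393, 12735 and 19041 in ligated ghrelin rats, between 11792 and 19396 (median 15938) in ligated saline rats and between 17307 and 24397 (median 20907) in sham rats. All 6 ligated saline rats were below the sham mean and 4 were below the lowest sham rat, so the groups overlapped at their edges. Crp fell by 0.44 on the log2 scale (SE 0.139) in ligated saline against sham rats (adjusted p = 0.0124 by limma; exact permutation p = 0.013, unadjusted). It fell by 0.46 (SE 0.146) in ligated ghrelin against sham rats (adjusted p = 0.0147 by limma).

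A2m, a broad protease inhibitor that also binds cytokines, varied widely between rats of 1 group. Its intensity was 317.8, 260.0, 528.6, 269.5 and 174.4 in ligated ghrelin rats, 1029, 1450, 223.5, 324.7, 1832 and 865.2 in ligated saline rats, and 570.4, 326.3, 204.4, 498.4, 1729 and 401.5 in sham rats. The 5 ligated ghrelin rats all lay at or under 528.6, while ligated saline rats 1, 2 and 5 and sham rat 5 lay between 1029 and 1832. The pooled within-group SD was 1.0 on the log2 scale, and only 0.924% of the 9736 genes had a larger one. The log2 change between ligated saline and sham rats was 0.62 ± 0.534 (95% interval -0.51 to 1.75, adjusted p = 0.326 by limma). That estimate was 0.98 without sham rat 5 and 0.36 without ligated saline rat 5, and it was not called in either case (adjusted p = 0.0943 and 0.582 by limma).

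**Figure D1:**
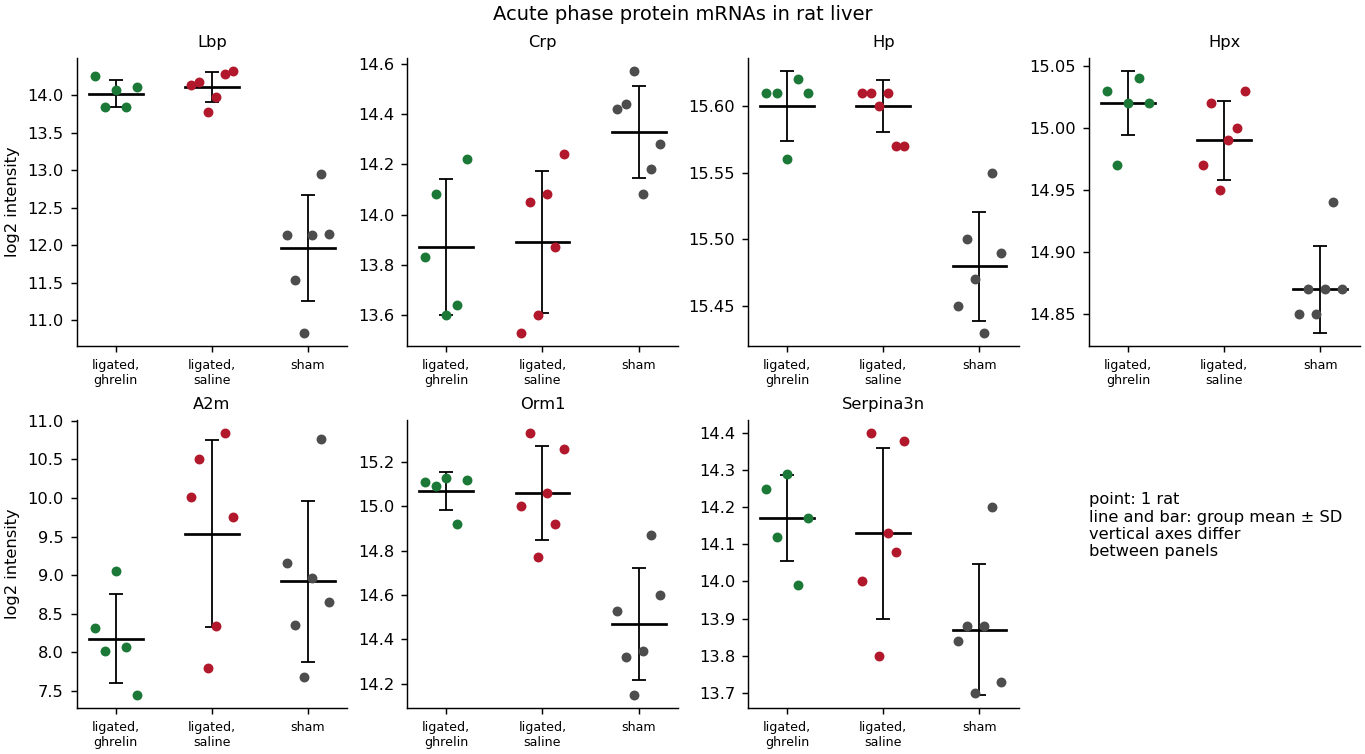
Log2 intensity of the 7 acute phase protein mRNAs in each rat, with ligated ghrelin (n = 5), ligated saline (n = 6) and sham rats (n = 6) from left to right; points are rats, lines and bars are group means ± SD, and vertical axes differ between panels. Lbp, Hp and Hpx separate ligated from sham rats completely, while the 3 groups of A2m overlap.

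The interleukin-6 receptor chain and its signalling partner changed in opposite directions. Il6r intensity was 569.8, 678.0, 497.4, 492.8 and 522.5 in ligated ghrelin rats, between 414.5 and 858.4 (median 535.2) in ligated saline rats and between 1185 and 2269 (median 1758) in sham rats. Every ligated rat was below every sham rat. Il6r fell by 1.52 on the log2 scale (SE 0.192) in ligated saline against sham rats, which made it 2.86-fold lower (adjusted p = 4.05e-06 by limma). In ligated ghrelin against sham rats it fell by 1.60 (SE 0.202) and was 3.04-fold lower (adjusted p = 5.96e-06 by limma). Both calls held in all 24 alternative analyses, where the change between ligated saline and sham rats stayed between -1.71 and -1.42.

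Il6st, the gp130 chain shared by most of the interleukin-6 cytokine family, was read by 4 probe sets. The brightest, 1371926_at, had intensities of 2830, 2986, 2890, 3322 and 2573 in ligated ghrelin rats, between 2795 and 3180 (median 2922) in ligated saline rats and between 2184 and 2833 (median 2554) in sham rats. It rose by 0.22 ± 0.0767 in ligated saline over sham rats (adjusted p = 0.0217 by limma), with 5 of 6 ligated saline rats above the highest sham rat, and without sham rat 6 the call was lost (0.17, adjusted p = 0.056 by limma). Probe set 1373140_at had intensities of 1124 to 1418 in ligated ghrelin rats, 1107 to 1898 in ligated saline rats and 718.2 to 1162 in sham rats, and it rose by 0.53 ± 0.137 (adjusted p = 0.00312 by limma) in ligated saline over sham rats. The change of 1383489_at, whose values are given with the ghrelin comparison, was 0.52 ± 0.139 (adjusted p = 0.00397 by limma). The fourth, 1370957_at, was not called (0.24 ± 0.127, adjusted p = 0.107 by limma). All 4 estimates pointed upward, and 3 passed the test. With array medians set equal the estimate of 1371926_at shrank to 0.027 (adjusted p = 0.767 by limma), whereas those of 1373140_at and 1383489_at remained called.

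Stat3, the transcription factor at the end of this chain, was higher in ligated rats by both of its probe sets. For 1371781_at, which had the higher mean over all rats, intensity was 1080, 987.3, 1764, 794.8 and 790.9 in ligated ghrelin rats, between 792.7 and 997.7 (median 879.9) in ligated saline rats and between 373.0 and 652.4 (median 448.3) in sham rats. No ligated rat overlapped a sham rat, and ligated ghrelin rat 3 stood well above the other 4 of its group. The change was 0.93 ± 0.171 in ligated saline over sham rats (1.9-fold, adjusted p = 0.00018 by limma) and 1.17 ± 0.179 in ligated ghrelin over sham rats (adjusted p = 4.41e-05 by limma). For 1370224_at it was 1429, 1475, 1637, 1117 and 617.7 in ligated ghrelin rats, between 414.7 and 1571 (median 758.7) in ligated saline rats and between 199.3 and 690.4 (median 532.0) in sham rats. This probe set was more scattered within groups (pooled log2 SD 0.664, against 0.310 for 1371781_at), and its groups overlapped. It rose by 0.91 ± 0.356 in ligated saline over sham rats (adjusted p = 0.0358 by limma), a call that was lost without sham rat 1 or 6 or without ligated saline rat 1, 2 or 4 (changes of 0.68 to 0.91). The call was also lost with array medians set equal (0.72, adjusted p = 0.0809 by limma) and with array weights (0.82, adjusted p = 0.0529 by limma). For this probe set the exact permutation test gave p = 0.0541 (two-sided, unadjusted). Phosphorylation, on which the activity of STAT3 depends, was not measured.

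**Figure D2:**
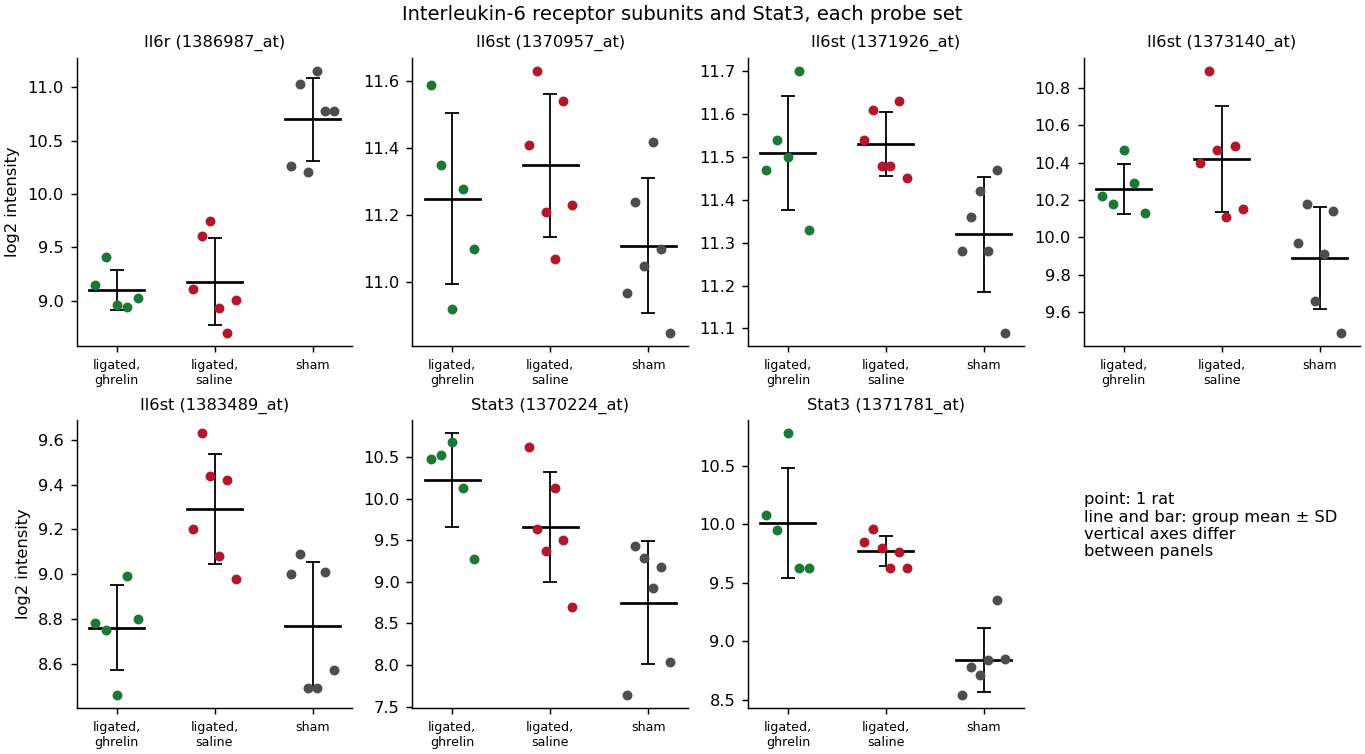
Log2 intensity of the Il6r, Il6st and Stat3 probe sets in each rat, with ligated ghrelin (n = 5), ligated saline (n = 6) and sham rats (n = 6) from left to right; points are rats, lines and bars are group means ± SD, and vertical axes differ between panels. Il6r is lower and Stat3 1371781_at is higher in every ligated rat than in every sham rat, and Il6st 1383489_at is lower in ligated ghrelin than in ligated saline rats in most animals.

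Ghrelin left most of these mRNAs near the level of ligated saline rats. Of the 14 probe sets, 0 rose and 0 fell between ligated ghrelin and ligated saline rats (limma, adjusted p under 0.05), where 2.22% of all probe sets were called, 1.32% as higher and 0.908% as lower. Groups did not overlap for 0 of the 14, against 4.41% of all probe sets. At an unadjusted limma p under 0.05 there were 2 of the 14, A2m and Il6st 1383489_at, and 3393 of all 15965 probe sets. By the exact permutation test 1 of the 14 was under that level.

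For 9 of the 10 genes, each read by its probe set of highest mean, the 95% interval of this log2 difference held zero. It ran from -0.10 to 0.11 for Hp, from -0.09 to 0.13 for Hpx and from -0.24 to 0.27 for Orm1. It ran from -0.20 to 0.27 for Serpina3n, from -0.33 to 0.29 for Crp and from -0.51 to 0.34 for Il6r. For Lbp the estimate was -0.086 with an interval of -0.63 to 0.46, for Il6st 1371926_at it ran from -0.20 to 0.14 and for Stat3 1371781_at from -0.14 to 0.62. These bounds say how large a difference the 11 ligated rats could still hide, and a missed threshold does not show that the groups were equal.

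A2m and one probe set of Il6st were lower in ligated ghrelin rats without passing the test over all probe sets. For A2m the log2 change was -1.36 ± 0.56 (95% interval -2.55 to -0.18), the unadjusted limma p was 0.0267, the adjusted p was 0.174 and the exact permutation test gave p = 0.0519. All 5 ligated ghrelin rats were below the ligated saline mean, but only 1 was below the lowest ligated saline rat. For Il6st 1383489_at the intensity was 439.9, 431.9, 352.4, 508.4 and 444.2 in ligated ghrelin rats, between 505.4 and 791.7 (median 635.7) in ligated saline rats and between 359.1 and 544.5 (median 446.4) in sham rats. The change was -0.54 ± 0.146 between ligated ghrelin and ligated saline rats (adjusted p = 0.0579 by limma, exact permutation p = 0.00866 unadjusted), with 4 of 5 ligated ghrelin rats below the lowest ligated saline rat. It passed the threshold without ligated saline rat 4 (-0.58, adjusted p = 0.0465 by limma), without ligated ghrelin rat 4 (-0.59, adjusted p = 0.0479 by limma) and under the stricter filter (adjusted p = 0.0495 by limma). The other 3 Il6st probe sets changed by -0.16, -0.10 and -0.026, so the probe sets of this gene gave different sizes. Stat3 lay in the other direction without being called, at 0.24 ± 0.179 for 1371781_at and 0.56 ± 0.373 for 1370224_at, and 0.049 for 1371781_at without ligated ghrelin rat 3.

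**Figure D3:**
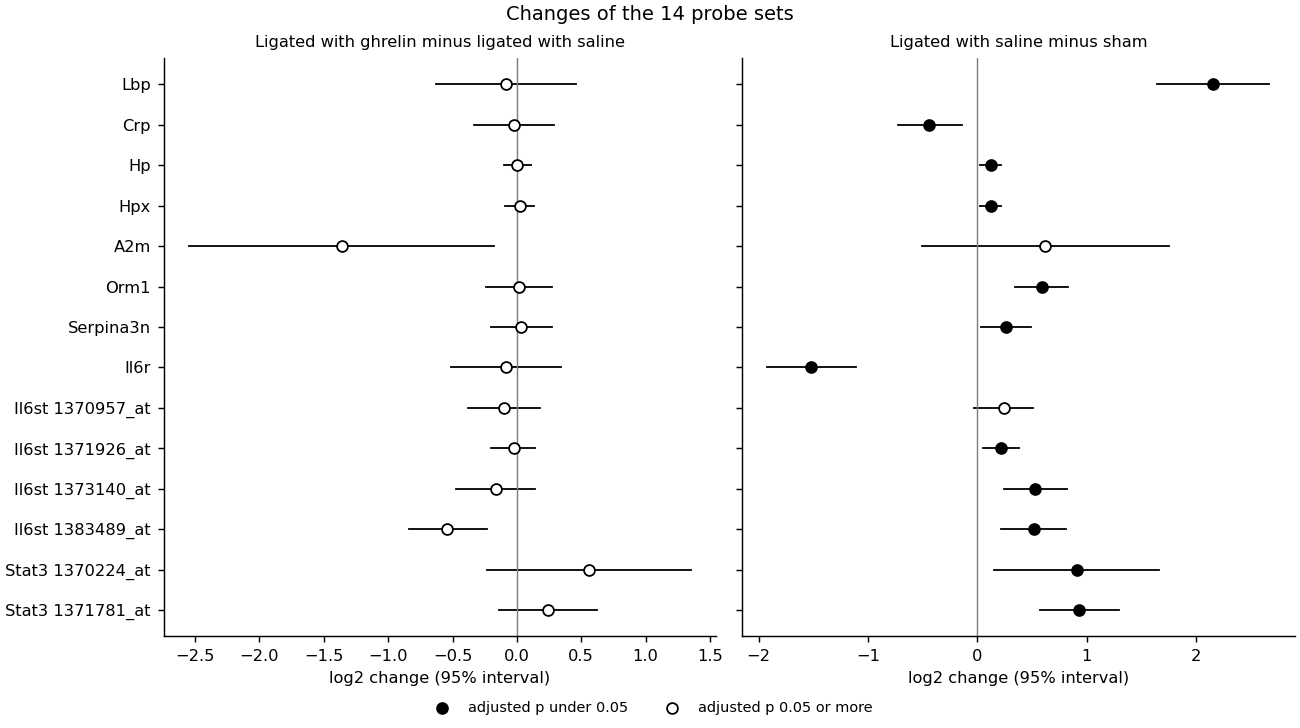
Log2 change with its 95% interval for each of the 14 probe sets, on the left ligated ghrelin minus ligated saline rats and on the right ligated saline minus sham rats; filled points passed an adjusted p under 0.05 by limma, and horizontal axes differ. No point is filled on the left and 12 are on the right, and A2m has the widest interval in both panels.

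The ligated ghrelin rats were also set against the sham rats, a comparison that shares its sham rats with the first one. Of the 14 probe sets, 7 rose, 2 fell and 5 were not called (limma, adjusted p under 0.05), where 53.5% of all probe sets were called, 29.9% as higher and 23.5% as lower. Groups did not overlap for 6 of the 14, against 35.6% of all probe sets. Hpx rose by 0.14 ± 0.051 (adjusted p = 0.0279 by limma) and Serpina3n by 0.29 ± 0.113 (adjusted p = 0.0372 by limma), while Hp missed the threshold (0.12 ± 0.0508, adjusted p = 0.053 by limma) although its groups did not overlap. Il6st 1373140_at rose by 0.37 ± 0.144 (adjusted p = 0.0409 by limma), 1371926_at was not called (0.19 ± 0.0805, adjusted p = 0.0554 by limma) and 1383489_at was at -0.018 ± 0.146. A2m was not called, at -0.74 ± 0.56 (adjusted p = 0.276 by limma), whereas its estimate between ligated saline and sham rats was 0.62. The count of probe sets that rose ran from 4 to 9 with each rat left out in turn and was 4 without ligated ghrelin rat 1. With array medians set equal it was also 4, and the calls of Hpx (0.02, adjusted p = 0.78), Serpina3n (0.17, adjusted p = 0.234) and Il6st 1373140_at (0.25, adjusted p = 0.156) were lost in that limma fit.

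Single rats held many of the extremes. Sham rat 5 held the highest sham value for 8 of the 10 genes (Lbp, Hp, Hpx, A2m, Orm1, Serpina3n, Il6st and Stat3), and sham rat 3 the lowest for 5 (Lbp, A2m, Orm1, Serpina3n and Il6r). In the ligated saline group rat 3 held the lowest value for 5 of the 7 acute phase genes (Lbp, Hpx, A2m, Orm1 and Serpina3n) and the highest for Il6r. In the ligated ghrelin group rat 3 held the highest value for A2m, Orm1, Serpina3n and Stat3 and the lowest for Crp and Hp. Its array also had the highest 3' minus 5' log2 values of all 17 for the beta-actin (2.62) and GAPDH (0.62) control probe sets, a sign of shorter cDNA, and the part of this in its values was not tested. Sham rat 5 had Lcn2 at 897 and sham rat 6 at 1189, against 19.1 to 109 in the other 4 sham rats, where Lcn2 encodes an acute phase protein also made by neutrophils. Without sham rat 5 the counts between ligated saline and sham rats were also 10 higher and 2 lower, and Lbp differed by 2.35 (adjusted p = 1.6e-07 by limma). Without ligated ghrelin rat 3 the count between ligated ghrelin and sham rats was 6 higher and 2 lower, and without sham rat 5 it was 9 higher and 2 lower.

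**Figure D4:**
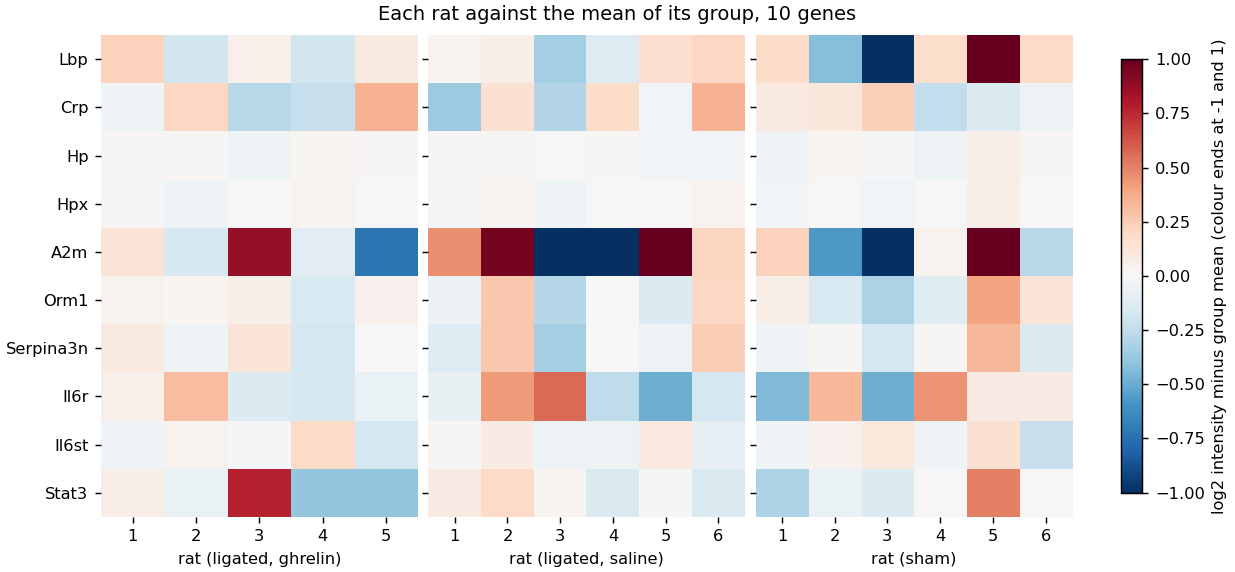
Log2 intensity of each rat minus the mean of its group for 1 probe set of each of the 10 genes, with ligated ghrelin, ligated saline and sham rats from left to right; red is above and blue below the group mean. Sham rat 5 is red for most acute phase genes and A2m has the strongest colours in all 3 groups, while Hp and Hpx are nearly white throughout.

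Il6, the gene of the ligand itself, gave intensities of 5.48 to 5.67 in ligated ghrelin rats, 5.25 to 5.68 in ligated saline rats and 5.68 to 6.06 in sham rats, all under the filter level of 15.5. Osm, the ligand oncostatin M, and Lifr, a receptor of the family, were also under that level in every rat, and Osmr had no probe set annotated to it alone. Socs3, the feedback inhibitor of gp130, exceeded it in 2 of the 6 ligated saline rats (35.8 and 18.2), and Tnf in 3 of the 6 (22.7, 17.7 and 34.9), and neither did so in a ligated ghrelin or sham rat. Il11ra1, a related receptor chain, fell by 0.35 on the log2 scale (SE 0.107, adjusted p = 0.00907 by limma) and the ligand gene Ctf1 by 0.27 (SE 0.111, adjusted p = 0.0414 by limma) in ligated saline against sham rats, and the Ctf1 call was kept in 16 of 24 alternative analyses. Ctf1 was at 67.8 to 103 in ligated ghrelin rats, 68.7 to 81.5 in ligated saline rats and 81.5 to 121 in sham rats. Clcf1 and Cntf, further ligand genes of the family, were not called.

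Genes that carry or damp the signal behind the receptor were read next. Of 17 measured genes of JAK-STAT3 signalling and its brakes, 10 rose and 1 fell in ligated saline against sham rats, where 64.7% of all 9736 genes were called, 37.5% as higher and 27.2% as lower, and the median change of the list was 0.47 against 0.07 over all genes. With equal array medians 9 rose and 3 fell, and after quantile normalization 8 rose and 2 fell. Adam17, the protease that sheds the receptor chain, rose by 1.16 ± 0.0821 (adjusted p = 7.52e-09 by limma) and the kinase gene Jak2 by 0.92 ± 0.112 (adjusted p = 2.75e-06 by limma). The kinase gene Jak1 rose by 0.27 ± 0.0672 (adjusted p = 0.00262 by limma), the adaptor phosphatase gene Ptpn11 by 0.52 ± 0.0837 and the phosphatase gene Ptpn2, a brake of the pathway, by 0.62 ± 0.108. With array medians set equal Jak1 was not called (0.08, adjusted p = 0.306 by limma).

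Adam17 and Jak2 were also the 2 genes of this list that changed between ligated ghrelin and ligated saline rats, both downward, where 2.34% of all genes were called, 1.76% as higher and 0.585% as lower, and groups did not overlap for 4.53%. Adam17 intensity was 479, 381, 438, 481 and 443 in ligated ghrelin rats, 721, 588, 528, 566, 599 and 622 in ligated saline rats, and 247 to 300 in sham rats. Every ligated ghrelin rat lay below every ligated saline rat and above every sham rat. Adam17 fell by 0.44 on the log2 scale (SE 0.0861, adjusted p = 0.0253 by limma), a call lost when only these 2 groups were fitted and without ligated saline rat 1 or ligated ghrelin rat 2 or 5 (highest adjusted p = 0.074). Jak2 intensity was 120, 103, 109, 134 and 136 in ligated ghrelin rats, 144, 177, 156, 160, 162 and 219 in ligated saline rats, and 70.4 to 102 in sham rats. The ligated groups of Jak2 did not overlap either. Jak2 fell by 0.49 (SE 0.117, adjusted p = 0.043 by limma), and this call held in 7 of 24 alternative analyses, with changes of -0.53 to -0.41 and adjusted p up to 0.125.

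**Figure D5:**
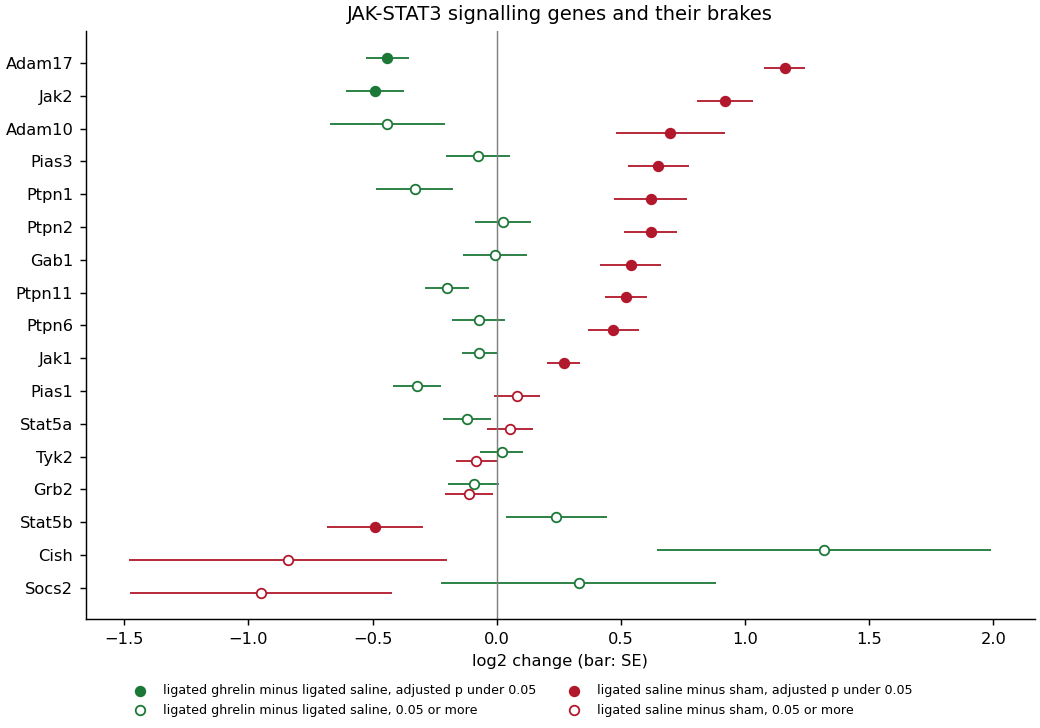
Log2 change ± SE of the 17 measured genes of JAK-STAT3 signalling and its brakes, in green for ligated ghrelin minus ligated saline rats and in red for ligated saline minus sham rats; filled points passed an adjusted p under 0.05 by limma. Adam17 and Jak2 are the 2 genes with filled points in both colours, at -0.44 and 1.16 and at -0.49 and 0.92.

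Other acute phase proteins did not share one direction. Of 24 measured genes of further positive acute phase proteins, which inflammation is known to raise, 3 rose, 6 fell and 15 were not called in ligated saline against sham rats, where 64.7% of all genes were called, 37.5% as higher and 27.2% as lower, with a list median of 0.03 (3 rose and 10 fell with equal array medians). Lcn2 rose by 6.70 ± 0.902 (adjusted p = 7.71e-06 by limma) and Steap4, a metalloreductase, by 1.41 ± 0.204. Apcs, the serum amyloid P gene and a pentraxin like Crp, fell by 1.36 (SE 0.124, adjusted p = 1.15e-07 by limma), Agt, the angiotensinogen gene, by 1.14 (SE 0.141) and Mbl1, a mannose-binding lectin gene, by 0.70 (SE 0.148). The fibrinogen genes Fga (0.044 ± 0.0599) and Fgb (0.0025 ± 0.0656) were not called, nor was C3 (0.11 ± 0.0497, adjusted p = 0.0658 by limma). Of 15 measured negative acute phase proteins, which inflammation is known to lower, 1 rose and 9 fell, against the same 37.5% and 27.2% of all genes. The list median was -0.33 against 0.07 over all genes, and 1 rose and 12 fell with equal array medians. Serpina6, the corticosteroid-binding globulin gene, fell by 2.05 (SE 0.225), Apom by 1.18 (SE 0.161), Fetub by 0.89 (SE 0.11) and F12 by 0.63 (SE 0.0782), while Alb was not called (-0.045 ± 0.05). Between ligated ghrelin and ligated saline rats 0 of the 24 and 0 of the 15 were called by limma, against 2.34% of all genes. An unadjusted limma p under 0.05 was found for 0 and 3, against 2138 of all 9736 genes. In that comparison the lowest p values belonged to Il1rn (-0.70 ± 0.404, adjusted p = 0.327), Mbl1, F12 and Itih1 (0.18 ± 0.073, adjusted p = 0.163).

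Genes upstream of the acute phase response moved in both directions. Of 14 measured transcription factor genes, 4 rose and 6 fell in ligated saline against sham rats, where 64.7% of all genes were called, 37.5% as higher and 27.2% as lower, with a list median of -0.24 (4 rose and 8 fell with equal array medians). The NF-kB subunit genes Nfkb2 (2.87 ± 0.184), Relb (2.69 ± 0.243, with 1 sham rat under the filter level) and Nfkb1 (1.65 ± 0.119) and the C/EBP gene Cebpd (1.71 ± 0.231) rose, the liver factor genes Hnf4a and Foxa1 fell by 0.79 (SE 0.097) and 0.60 (SE 0.206), and Cebpb was not called (-0.42 ± 0.217, adjusted p = 0.104 by limma). Of 16 genes that sense interleukin-1, TNF and endotoxin, 10 rose and 3 fell, with a list median of 0.81 (10 rose and 6 fell with equal array medians). Of the 10, 1 was under the filter level in all 6 sham rats. Il1b rose by 1.67 ± 0.438, the NF-kB inhibitor gene Tnfaip3 by 2.98 ± 0.273, Ly96, a partner of TLR4 in sensing the endotoxin that Lbp delivers, by 1.28 ± 0.118 and the inhibitor gene Irak3 by 1.61 ± 0.265. Il1rap, the second chain of the interleukin-1 receptor, fell by 1.31 (SE 0.137). Between ligated ghrelin and ligated saline rats 0 of the 14 and 0 of the 16 were called by limma, against 2.34% of all genes. An unadjusted limma p under 0.05 was found for 4 and 2, against 2138 of all 9736 genes. Ly96 came nearest (-0.45 ± 0.124, adjusted p = 0.060 by limma), then Hnf4a (0.35 ± 0.102, adjusted p = 0.0714 by limma, groups not overlapping), Foxa1 (0.58 ± 0.216, adjusted p = 0.137) and Tnfrsf1a, a TNF receptor gene (0.23 ± 0.106, adjusted p = 0.216).

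Known targets of STAT3 and the receptors that clear the acute phase proteins were also read. Of 16 measured STAT3 targets, 8 rose and 1 fell in ligated saline against sham rats, where 37.5% of all genes were called higher and 27.2% lower, with a list median of 0.56 (8 rose and 4 fell with equal array medians, 8 and 2 after quantile normalization). Those that rose included Timp1 (3.37 ± 0.294), Ccnd1 (2.80 ± 0.292), Icam1 (1.38 ± 0.132) and Mcl1 (0.64 ± 0.0907). Fos was also called higher, at 94.8 to 311 in ligated saline rats and 8.14 to 34.5 in sham rats, of which 3 were under the filter level, so its fold is not given. Many of these genes answer to other factors too. Between ligated ghrelin and ligated saline rats 0 of the 16 were called by limma, against 2.34% of all genes. An unadjusted limma p under 0.05 was found for 2, against 2138 of all 9736 genes. These were Mcl1 and Bcl2l1, which both restrain cell death. Of 11 clearance and haem genes, 6 rose and 3 fell in ligated saline against sham rats, against the same 37.5% and 27.2% of all genes, with a list median of 0.36 (4 rose and 4 fell with equal array medians). Cd163, the macrophage receptor for haptoglobin bound to haemoglobin, rose by 0.89 ± 0.143, Hmox1, which breaks down haem, by 1.40 ± 0.244 and the iron exporter gene Slc40a1 by 0.87 ± 0.107, while Lrp1, a receptor for hemopexin and for A2m complexes, was not called (-0.093 ± 0.151). Asgr2 and Asgr1, the subunits of the hepatocyte receptor for desialylated glycoproteins, fell by 1.09 (SE 0.132) and 0.54 (SE 0.0868). Lrpap1, the chaperone of Lrp1, was the 1 gene of this list that rose between ligated ghrelin and ligated saline rats, where 1.76% of all genes did. It changed by 0.27 ± 0.0648 (adjusted p = 0.043 by limma), a call kept in 11 of 24 alternative analyses.

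For each gene, the gene whose log2 values relative to the sham mean differed least over the 17 arrays was found. Hp lay closest to C3 (root mean square difference 0.0276) and Hpx to Hp (0.0332), Serpina3n to the complement gene C9 (0.0712) and Il6st to Jak1 (0.0954). Crp lay closest to Eci2 (0.135), Orm1 to Pak1 (0.148), Stat3 to Rarg (0.225), Il6r to Cobll1 (0.310) and Lbp to Coro1a (0.314). For A2m the nearest gene, Gadd45b, was still 0.809 away. The values share the difference between ligated and sham rats, and no test was made on them.

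Summed mRNA of cell type markers was also read in each group, and it cannot tell the number of cells from the RNA per cell. All 13 measured hepatocyte markers exceeded the filter level, and their summed intensity was 325503 to 359241 in ligated ghrelin rats, 298250 to 338252 in ligated saline rats and 346415 to 374765 in sham rats. Summed bile duct markers (9 measured of 11) ran from 7442 to 11985 in ligated ghrelin, 5998 to 18823 in ligated saline and 387 to 725 in sham rats. Of these 9, Cftr, Sctr, Cldn4 and Cldn7 were under the filter level in all 6 sham rats and Krt7 in 5 of 6, so they were measured through the ligated rats and the sham sums include values under that level. Macrophage markers (12 of 14) summed to 30922 to 49665 in ligated ghrelin, 39914 to 55095 in ligated saline and 14564 to 26509 in sham rats. Neutrophil markers (3 of 10) ran from 3641 to 7584 in ligated ghrelin, 1703 to 6547 in ligated saline and 214 to 574 in sham rats, with Camp and Cxcr2 under the filter level in every rat and Csf3r in every sham rat. Lymphocyte markers (4 of 11) ran from 834 to 1456 in ligated ghrelin, 1239 to 2218 in ligated saline and 375 to 788 in sham rats. The 4 were Cd3e, Cd4, Lck and Ptprc, and Cd3e was not called in either ligated group against sham rats. Cd3d, Cd79b and Ms4a1 were under the filter level in every rat, and Cd3g and Cd8a in most rats. Stellate cell and myofibroblast markers (12 of 12) ran from 17499 to 23822 in ligated ghrelin, 21043 to 42870 in ligated saline and 4109 to 5576 in sham rats. Of these 12, 11 were called higher and 1, Lrat, was called lower in each ligated group against sham rats. In ligated saline against sham rats 37.5% of all genes were called higher and 27.2% lower. In ligated ghrelin against sham rats 29.9% of all probe sets were called higher and 23.5% lower. Endothelial markers (8 of 9) ran from 4073 to 6140 in ligated ghrelin, 4732 to 6153 in ligated saline and 4945 to 6249 in sham rats. Of 8 adipose and muscle markers only Fabp4, which other cells also express, passed the filter. The part of tissue makeup in the changes of the 10 genes was not tested. Median array intensity was 15.4 to 16.4 in ligated ghrelin, 16.1 to 17.6 in ligated saline and 14.2 to 14.7 in sham rats, arrays of 1 group correlated at 0.988 to 0.995, and no 2 arrays were identical.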

How the data were processed

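Liver RNA of 17 rats was hybridised to Affymetrix Rat Genome 230 2.0 arrays, 1 array per rat, so each test compared rats. The permutation p-values use the values of the compared rats alone. The limma p-values also use a spread shared by all kept probe sets, towards which eBayes moves the spread of each. For Hp the SE between ligated saline and sham rats was thus 0.0484, above its within-group SD of 0.0303. The deposited values are intensities on a linear scale (2.14 to 61840 for 31099 probe sets), made by the authors with GCRMA per the submitters' processing notes, and background correction, summarisation and scaling had thus been done before deposit. They were expected on a log2 scale, and log2 was taken here with no pseudocount. After 57 control probe sets were left out, a probe set was kept when above 15.5, the median of all deposited values, on at least 5 arrays, which left 15965. Group means were compared with limma 3.58.1 in R 4.3.3 (lmFit on all 17 arrays, eBayes; prior df 2.54, residual df 14), with Benjamini-Hochberg adjustment over all 15965 and calls at an adjusted p under 0.05. The probe set with the highest mean stood for a gene. Exact two-sided permutation tests (scipy 1.17.1) were run for 42 single values and left unadjusted. The fit was tested on simulated data.

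Probe sets were named from the platform annotation: 20826 had 1 gene symbol, 436 several and 9780 none listed, and 20764 were matched to RefSeq by gene identifier. The 10 genes, the pathway lists and the marker lists were chosen with earlier results of these data known. Besides the 10 genes, the text names the 4 genes of each list with the lowest p for ligated saline against sham rats, the 2 with the lowest p for ligated ghrelin against ligated saline rats, a set list (Il6, Osm, Lifr, Osmr, Jak1, Socs3, Cebpb, Cebpd, Il1b, Tnf, Fga, Fgb, Alb, Cd163, Lrp1 and Hmox1) and the nearest genes. Alternatives were other filters, quantile normalization, equal array medians, another variance prior, array weights, fits of only 2 groups, and each rat left out.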

Additional observations from a re-analysis of the deposited data

Results flagged for a closer look

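In each of the 42 combinations of probe set and group, the highest and the lowest rat were set against the others of the group with Dixon's test, which chance alone passes in about 1 in 20 groups, and 4 values stood apart. Ligated ghrelin rat 3 had Hp at a log2 intensity of 15.56, below the 15.61 to 15.62 of the other 4 rats. Ligated ghrelin rat 4 had Orm1 at 14.92, below the 15.09 to 15.13 of the other 4. Sham rat 5 had Hpx at 14.94, above the 14.85 to 14.87 of the other 5 sham rats, and Serpina3n at 14.20, above 13.70 to 13.88. Sham rat 5 was thus high in both and also held the highest sham value of A2m and Lbp, which did not pass this test.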

How the results depend on the processing

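Of the 12 calls between ligated saline and sham rats, 7 held under all 24 alternatives (Lbp, Crp, Orm1, Il6r, Stat3 1371781_at and Il6st 1373140_at and 1383489_at), and Hp, Hpx, Serpina3n, Il6st 1371926_at and Stat3 1370224_at each lost theirs under some. With array medians set equal, 5 in place of 10 probe sets rose between ligated saline and sham rats and 4 in place of 7 between ligated ghrelin and sham rats. Under that setting Hp and Hpx turned to -0.072 and -0.069 between ligated saline and sham rats, and Crp and Il6st 1371926_at to 0.046 and 0.043 between ligated ghrelin and ligated saline rats. With array weights Il6st 1370957_at turned to 0.006 between the ligated groups. The stricter filter, which tests fewer probe sets, made 1 call in place of 0 downward between the ligated groups (Il6st 1383489_at). Upward calls were gained too. Between ligated ghrelin and sham rats Hp was called with no filter, another variance prior or array weights. Il6st 1371926_at was called there with no filter, another variance prior or quantile normalization. Quantile normalization also called Il6st 1370957_at between ligated saline and sham rats (0.33, adjusted p = 0.0262 by limma). The causes of the other changes were not tested.

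With each rat left out in turn, 5 to 10 probe sets rose between ligated saline and sham rats (6 without sham rat 1, 5 without sham rat 6, 6 without ligated saline rat 2 and 6 without ligated saline rat 4), 0 to 1 fell between the ligated groups (1 without ligated saline rat 4 or ligated ghrelin rat 4) and 4 to 9 rose between ligated ghrelin and sham rats (4 without ligated ghrelin rat 1). The estimates that changed sign were all uncalled. Between the ligated groups they ranged over -0.11 to 0.048 for Crp, -0.001 to 0.015 for Hp, -0.043 to 0.07 for Orm1, -0.032 to 0.087 for Serpina3n, -0.18 to 0.027 for Il6r and -0.073 to 0.019 for Il6st 1371926_at, and between ligated ghrelin and sham rats over -0.076 to 0.056 for Il6st 1383489_at. Scaling moved the median change of all probe sets between ligated saline and sham rats to -0.11 after quantile normalization and -0.15 with equal medians, against 0.04 as reported. The share of calls that were higher moved with it to 42.0% and 39.0%, against 55.7%, and was 27.1% with no filter. Between the ligated groups that share was 67.3% and 80.4% under the 2 scalings, against 59.2%, and between ligated ghrelin and sham rats it was 43.8% and 43.1%, and 25.7% with no filter, against 56.0%. The count of probe sets called with no filter was 22230 between ligated saline and sham rats, against 9825, and 19914 between ligated ghrelin and sham rats, against 8534. Between the ligated groups it was 154 with no filter, 541 after quantile normalization and 611 with equal medians, against 355. No paired analysis was possible because the labels give the rats no numbers that groups share. The number of arrays limits precision, and little can be read from levels under 15.5, the median of all values.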
